A study of Mus musculus with 4 samples.

Results

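Runx2 peaks were examined at 51 genes that encode proteins of the cytosolic ribosome, 30 of the large subunit and 21 of the small subunit, out of 22359 protein-coding genes of the GENCODE M1 annotation of the mouse genome build mm9. The 51 genes were taken by symbol, all 51 symbols matched 1 annotated gene each, and they lie on 18 chromosomes. A peak was assigned to a gene when it overlapped, by at least 1 bp, the gene body widened by 2 kb on each side. The peaks came from ChIP-Seq with the Runx2 antibody M70 in MC3T3-E1 subclone 4 cells, a preosteoblast line derived from mouse calvaria (C57BL/6), at day 0 (proliferating), day 9 (matrix-depositing) and day 28 (mineralizing) of culture with ascorbic acid and beta-glycerophosphate. All 3 groups are the same unmodified line, which limits them to 1 cell culture model. At each day the reads of 2 biological replicates had been pooled into 1 list of peaks, called against input DNA from day 9 cells, so that the 3 lists share 1 control that matches the culture stage of day 9 alone. No spread between replicates can therefore be given, no value below is a test, and a difference between days has no replicate check. The lists hold no expression values, so the culture stages could not be checked against marker genes.

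Runx2 is the Runt-domain transcription factor required for osteoblast differentiation, and it binds DNA at the Runx core sequence TGTGGT together with its partner Cbfb. Cytosolic ribosomal proteins assemble with ribosomal RNA in the nucleolus into the subunits that translate messenger RNA, and every growing cell makes them in large and roughly equal amounts. Their genes are short and highly transcribed, usually start in a CpG island, and their messenger RNAs typically begin with a run of pyrimidines, through which translation responds to nutrient signals.

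Nearly all of these 51 ribosomal protein genes carried a Runx2 peak at their start at each day. A peak reached within 1 kb of an annotated protein-coding transcript start (called a start peak here) at 50 of the 51 genes at day 0 (98.0%, 95% Clopper-Pearson interval 89.6% to 100%), against 43.5% of the 22308 other protein-coding genes. At day 9 all 51 genes had a start peak (interval 93.0% to 100%), against 53.2% of the other genes. At day 28 the count was again 51, against 51.0% of the other genes. Start peaks in all 3 lists were found at 50 of the ribosomal protein genes and at 42.3% of the other genes. The gene that was not listed at every day was Rpl17, a large-subunit protein that lies near the exit of the peptide tunnel. Its start peak had a score of 209 at day 9 and 321 at day 28, where the score is the −log10 of the MACS p-value multiplied by 10 and the lists begin at 100. At day 0 no peak overlapped Rpl17 or the 2 kb on either side of it. The intervals treat the genes as separate draws and cover counting error only.

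The promoters of these genes were CpG-rich more often than those of other genes, and the comparison was repeated against genes of that kind. A CpG-rich promoter, defined as an observed-to-expected CpG ratio of at least 0.6 and a GC content of at least 50% within 500 bp of the start, was present at 47 of the 51 genes (92.2%) and at 44.9% of the other genes. Among the 10006 other genes with such a promoter, a start peak was listed at 75.4% at day 0, 86.4% at day 9 and 85.0% at day 28. All 3 shares lay below the lower bounds of the intervals for the 51 ribosomal protein genes. These intervals are no test of the difference, because the 51 genes were chosen with earlier results of these data known. For 34 other cytosolic ribosomal protein genes the intervals were 65.5% to 93.2%, 80.3% to 99.3% and 76.3% to 98.1%. Those intervals hold the shares of the CpG-rich genes at each day. Of the 51 genes, 4 were outside the CpG-rich class, and each had a start peak in all 3 lists. They were Rpl4 (GC content 47.0%), Rps9 (49.5%), Rpl18 (CpG ratio 0.553) and Rps10 (0.292). How far CpG content accounts for the remaining difference was not tested.

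**Figure D1:**
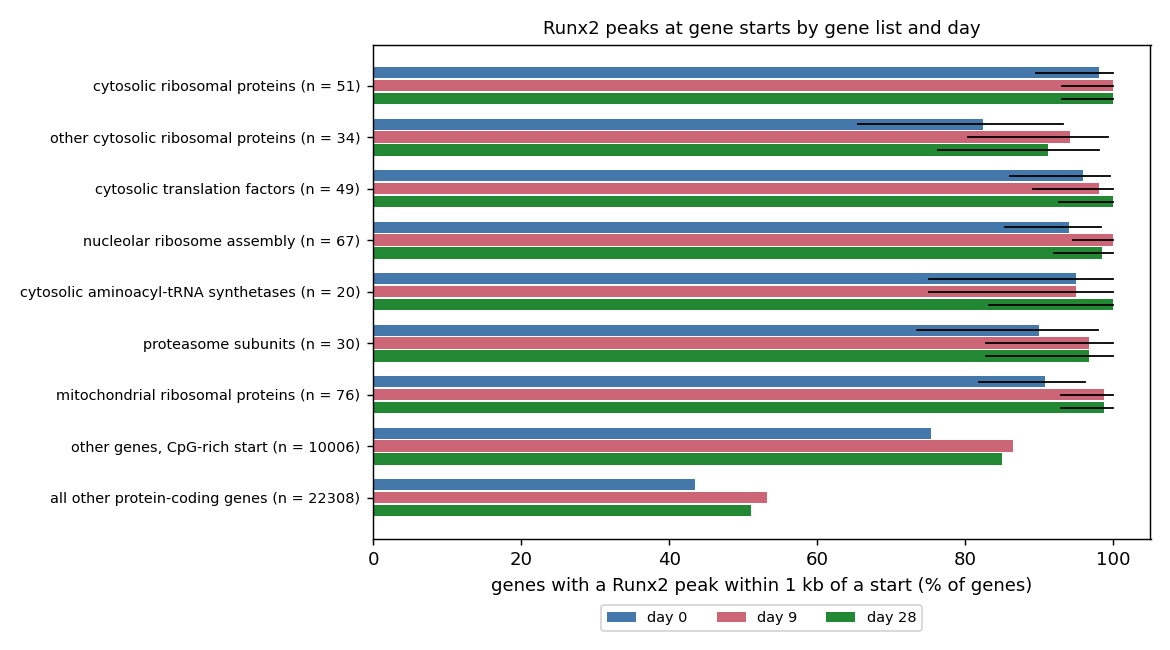
Share of genes, in percent, with a Runx2 peak within 1 kb of an annotated start at day 0, day 9 and day 28, for the 51 cytosolic ribosomal protein genes, 6 lists of related or widely expressed genes, other genes with a CpG-rich start and all other protein-coding genes. Black lines are 95% Clopper-Pearson intervals, drawn for the gene lists alone. The bars of the 51 genes stand at 98.0%, 100% and 100%, and those of all other genes at 43.5%, 53.2% and 51.0%.

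The wider assignment, over the gene body and 2 kb on each side, gave the same counts of genes. At least 1 peak was assigned to 50, 51 and 51 ribosomal protein genes at day 0, day 9 and day 28. The shares were 51.7%, 65.5% and 59.7% of all other genes, and 81.7%, 93.0% and 89.7% of those with a CpG-rich promoter. At day 9 the CpG-rich share was at the lower bound of the interval of the ribosomal protein genes, 93.0%. These genes are short, with a median length of 3.37 kb (range 0.849 to 42.6 kb) against 15.5 kb for the other genes. In all, 68, 88 and 73 peaks were assigned to them, of which 54, 58 and 57 were start peaks. The mean number per gene was 1.33, 1.73 and 1.43, against 0.918, 2.04 and 1.40 per other gene, so that at day 9 the ribosomal protein genes had fewer peaks per gene than the others although each of them had a peak.

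The heights of the start peaks were in the usual range for start peaks. The 3 lists hold 25457, 60596 and 40330 peaks. The study reports the most raw reads for the shortest of these lists, so the peak counts do not follow read depth. As the lists differ in both length and depth, each score was ranked within its own list. It is given as a percentile, where 100 is the highest score. When the highest-scoring start peak stood for each gene, the ribosomal protein genes had median percentiles of 67.5, 84.3 and 79.6 in the day 0, day 9 and day 28 lists. Rpl17, with no start peak at day 0, is left out of the day 0 median. The 95% intervals of these medians ran from 60.0 to 81.0, from 78.3 to 86.7 and from 77.1 to 84.9. The other genes with a start peak had medians of 61.8, 82.0 and 78.7, and those with a CpG-rich promoter had medians of 64.1, 85.2 and 82.2. The medians of the CpG-rich genes lay inside the intervals of the ribosomal protein genes at all 3 days. A start peak in the top 10% of its list was held by 4 ribosomal protein genes at day 0 (7.84%), by 15 at day 9 (29.4%) and by 9 at day 28 (17.6%), against 4.44%, 15.5% and 12.9% of all other genes and 8.13%, 30.0% and 25.4% of the CpG-rich ones. At a score of 3100, 192, 2699 and 1468 peaks of the lists are tied. This score or a higher one was reached by 0, 7 and 5 ribosomal protein genes (0%, 13.7% and 9.8%). The shares were 0.193%, 7.21% and 5.24% of all other genes, and 0.35%, 14.1% and 10.4% of the CpG-rich ones.

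Large-subunit and small-subunit genes had similar ranks. The median percentile was 70.0, 85.5 and 81.7 for the large-subunit genes and 66.5, 82.7 and 79.2 for the small-subunit genes at day 0, day 9 and day 28. Their intervals overlapped at each day, being 57.3 to 86.5 and 52.6 to 82.1 at day 0.

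**Figure D2:**
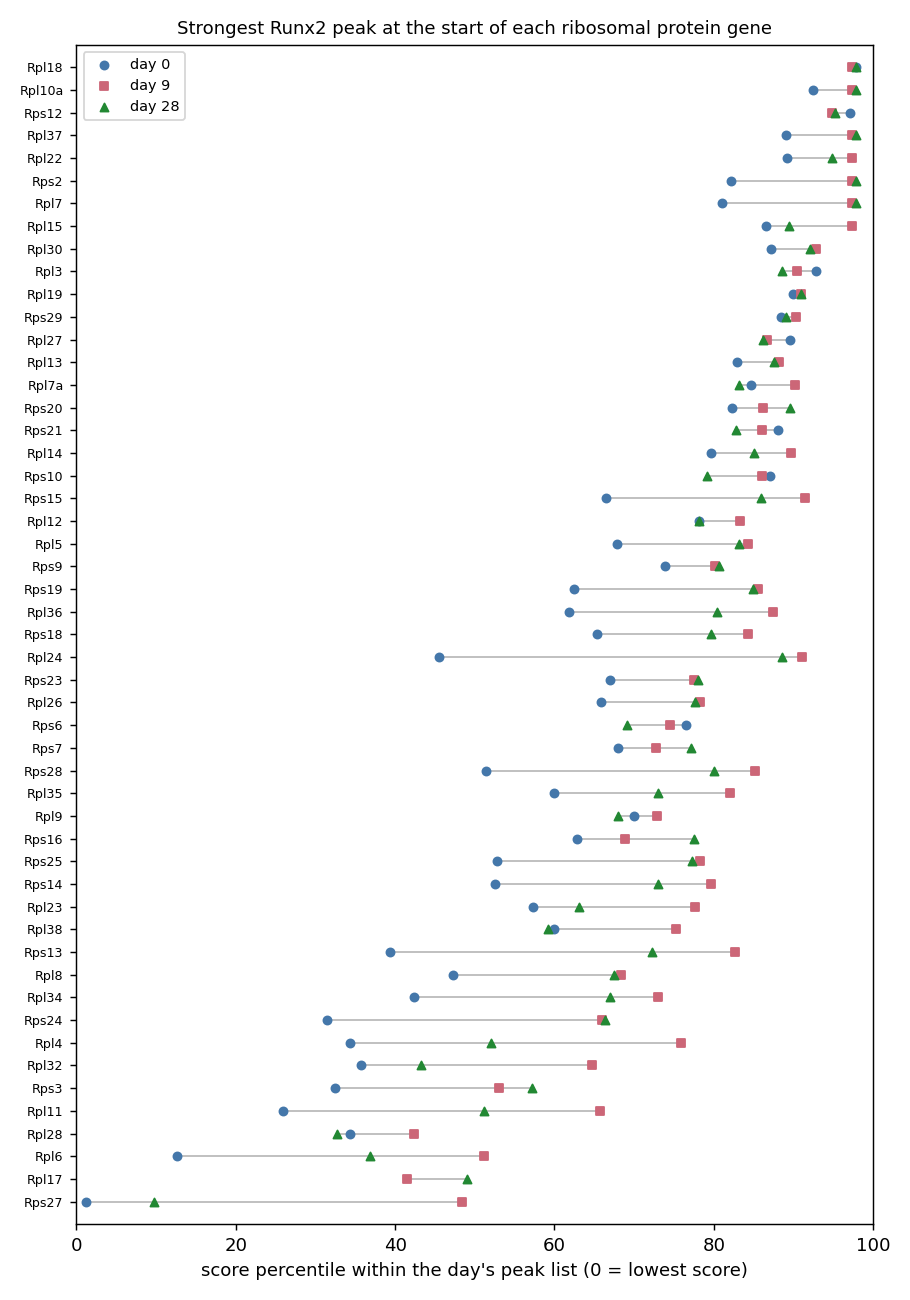
Percentile, within the peak list of each day, of the highest-scoring Runx2 peak within 1 kb of a start of each of the 51 ribosomal protein genes, ordered by the mean over the 3 days. Points are days and the grey line joins the lowest and the highest day of a gene. Rpl18 is at the top with percentiles of 97.9, 97.4 and 97.8, and Rps27 at the bottom with 1.23, 48.4 and 9.77; Rpl17 has no point at day 0.

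Ranked by the mean percentile over the 3 lists, 8 of the 10 leading genes and 4 of the 5 lowest encode large-subunit proteins, which are 30 of the 51. Rpl10a, a protein of the mobile stalk beside the exit site, had start-peak scores of 1122 (day 0), 3100 (day 9) and 3100 (day 28), and the scores of the other genes are given in the same order. Rps12, a protein of the small-subunit beak, had scores of 1851, 2929 and 2866. Rpl37, a small zinc-binding protein, had scores of 905, 3100 and 3100. All 3 genes were at percentile 89.1 or above in every list. Rpl22, which has a close relative in Rpl22l1, had scores of 907, 3100 and 2753. Rps2, which lines the entry of the messenger RNA channel, had scores of 667, 3100 and 3100. Rpl7 had scores of 641, 3100 and 3100, from a peak that also lay near the start of Rdh10. In these 3 genes the day 0 peak ranked lower in its list, at percentiles of 89.2, 82.1 and 81.0, than the later peaks, which were at 94.8 or above. Rpl15 had scores of 801, 3100 and 1811. Rpl30 had scores of 827, 2369 and 2189. Rpl3, which reaches to the peptidyl transferase centre, had scores of 1146, 1947 and 1713, and was the only gene of these 3 whose percentile was highest at day 0 (92.8 against 90.5 and 88.5).

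Rpl18 had the highest mean percentile, 97.7, but at a second annotated start. Its strongest peak scored 2128, 3100 and 3100, and its centre lay 2744, 2725 and 2544 bp beyond the reference start, which is the commonest start among the transcripts of the consensus coding set. At the reference start itself Rpl18 had scores of 207, 1053 and 685, at percentiles of 37.6, 81.4 and 69.5. A start of Sphk2, a sphingosine kinase gene, lies within 1 kb of both peaks. Rpl24, a large-subunit protein, showed the same arrangement at day 9 and day 28. It had scores of 2034 and 1719 near the start of a 35.1 kb transcript. At the reference start the scores were 234 and 354, at percentiles of 45.8 and 52.0. The 35.1 kb transcript begins past the end of the 5.16 kb transcript from the reference start, and a 14.4 kb transcript spans the stretch between them. Whether the 35.1 kb transcript belongs to Rpl24 or to a neighbouring gene was not checked, and the rank of Rpl24 rests on it. Rps10 had its strongest peak 1755 and 1746 bp inside the gene at day 9 and day 28, with scores of 1403 and 1047, against 700.0 and 706 for the strongest peak within 1 kb of the reference start. With the reference start alone, the median percentile of the genes with a start peak was 66.8, 82.0 and 78.0.

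At the other end of the ranking were Rpl11, Rpl28, Rpl6, Rpl17 and Rps27, with mean percentiles from 47.6 down to 19.8. Rps27, a zinc-finger protein of the small subunit, had scores of 102, 253 and 120.1, close to the lowest score of the lists at day 0 and day 28 and at percentile 48.4 at day 9. Rpl6 had scores of 125, 275 and 224, and Rpl28 had 193, 214 and 201. Rpl17, with no peak at day 0, had a mean percentile of 30.2 when that day was set to 0. Rpl11, which together with Rpl5 can bind Mdm2 outside the ribosome, had scores of 162, 468 and 344. Its partner Rpl5 ranked higher, with scores of 431, 1257 and 1282. Rpl4, which ranked 44 of the 51, had scores of 193, 764 and 354. Its peaks of 764 and 354 ended upstream of the Rpl4 start and overlapped the neighbouring gene Zwilch. The peaks over the Rpl4 start itself scored 101 at day 9 and 130 at day 28, at percentiles of 0.55 and 13.7. The rank of Rpl4 rests on the higher peaks. The start peaks of Rps27, Rpl6 and Rpl28 were thus present in all 3 lists, and each was below the median score of the ribosomal protein genes with a start peak at every day.

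A few genes with known roles in signalling, disease or messenger RNA entry, picked for these roles, ranked between 24 (Rps19) and 46 (Rps3) of the 51 by mean percentile. Rps6, the substrate of the S6 kinases, had scores of 553, 710 and 671. Rps19, the gene most often mutated in Diamond-Blackfan anaemia, had scores of 371, 1356 and 1398. Rps14, whose loss underlies part of the 5q syndrome, had scores of 288, 954 and 793. Rps19 was thus at a higher score than Rps6 at day 9 and day 28 and at a lower one at day 0. Rpl38, which is known from the tail-short mouse for its part in skeletal patterning, had scores of 348, 735 and 457. Rps3, a protein at the entry of the messenger RNA channel, had scores of 185, 293 and 424. Neither of these last genes exceeded the median score of the ribosomal protein genes with a start peak, which was 425.1, 1256 and 1068.

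The promoters of Rpl10a, Rps12 and Rps27 are shown because these genes have 1 annotated protein-coding start each and stand at the top and at the bottom of the ranking. The sequences are from the mm9 genome (NCBIM37), run from 250 bases before to 20 bases after the start on the coding strand, and carry in capitals the fixed motifs and the pyrimidine run nearest to the start.
Rpl10a, chr17:28465166-28465435, + strand: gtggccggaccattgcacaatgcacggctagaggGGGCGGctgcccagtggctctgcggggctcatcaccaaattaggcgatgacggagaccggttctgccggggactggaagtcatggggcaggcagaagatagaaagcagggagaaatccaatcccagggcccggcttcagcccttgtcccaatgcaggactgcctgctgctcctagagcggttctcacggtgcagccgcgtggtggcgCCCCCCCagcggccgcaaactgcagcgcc
Rps12, chr10:23506996-23507265, - strand: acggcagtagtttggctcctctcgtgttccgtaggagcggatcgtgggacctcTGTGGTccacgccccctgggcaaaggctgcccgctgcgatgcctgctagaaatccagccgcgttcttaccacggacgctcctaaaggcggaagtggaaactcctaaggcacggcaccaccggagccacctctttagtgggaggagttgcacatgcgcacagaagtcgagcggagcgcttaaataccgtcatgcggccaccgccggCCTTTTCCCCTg
Rps27, chr3:90017554-90017823, - strand: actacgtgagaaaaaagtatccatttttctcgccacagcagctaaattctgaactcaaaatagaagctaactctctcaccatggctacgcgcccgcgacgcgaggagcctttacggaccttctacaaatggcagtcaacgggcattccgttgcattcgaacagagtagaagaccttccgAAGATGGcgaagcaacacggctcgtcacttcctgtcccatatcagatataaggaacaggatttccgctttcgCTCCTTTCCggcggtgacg
In Rpl10a the capitals mark GGGCGG, the Sp/KLF sequence, and a pyrimidine run of 7 bases that ends before the annotated start. In Rps12 they mark the Runx core TGTGGT and a pyrimidine run of 11 bases, and in Rps27 the YY1 sequence AAGATGG and a pyrimidine run of 9 bases. The core TGTGGT of the Rps12 promoter is not within 50 bp of the centre of any of its start peaks. Rps27, with start-peak scores of 102 to 253, and Rpl10a, with scores of 1122 to 3100, both lack TGTGGT in this window.

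Over the 51 promoters, from 250 bases before to 50 bases after the reference start and on both strands, TGTGGT was found in 7 (13.7%, interval 5.7% to 26.3%), against 15.3% of the other promoters and 9.82% of the CpG-rich ones. TGCGGT, a variant of the Runx core, was found in 5 (9.8%) against 7.31% and 10.8%. The ETS sequence CCGGAAG was found in 15 (29.4%, interval 17.5% to 43.8%) against 11.0% and 18.9%, and its interval holds the share of the CpG-rich promoters. GGGCGG was found in 22 (43.1%, interval 29.3% to 57.8%) against 44.7% and 74.0%. GGGCGG was therefore less frequent than in CpG-rich promoters, while both Runx sequences were at shares within the intervals of these genes. The cAMP response element TGACGTCA was found in 4 (7.84%) against 2.37% and 3.76%, AAGATGG in 5 (9.8%) against 6.72% and 7.08%, and TATAAA in 6 (11.8%) against 13.4% and 5.43%. A pyrimidine run of at least 7 bases that touches the 10 bp on either side of the start was found in 20 (39.2%, interval 25.8% to 53.9%) against 19.2% and 16.5%. These are matches of letters in the genome and not measured sites.

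The start peaks covered the starts. At least 1 annotated start lay inside a peak at 49, 50 and 50 of the 51 genes at day 0, day 9 and day 28. The shares were 40.6%, 48.3% and 48.2% of all other genes, and 72.4%, 83.0% and 83.2% of the CpG-rich ones. Rps10 counted by another annotated start at day 0 and day 9, when its reference start lay outside every peak. The files give no summit, so the peak centre was used for position. The median distance from the nearest start to the centre of the strongest start peak was 27 bp inside the gene at day 0, 27 bp at day 9 and 70 bp at day 28 (other genes 10, 44 and 35 bp). The centre lay within 250 bp of a start at 39 of 50, 39 of 51 and 40 of 51 genes (78.0%, 76.5% and 78.4%), against 71.3%, 72.8% and 75.5% of the other genes. The farthest centre was that of Rps10 at day 0, at -1032 bp. Centres over 500 bp from a start were also seen at Rpl7 (-826 bp at day 9 and -552 bp at day 28), Rpl4 (-614 bp at day 9), Rpl7a (-539 bp at day 0) and Rpl12, and at Rpl35, where the peaks were centred 735, 524 and 545 bp inside the gene and the start lay outside the peak. Rpl12, a protein of the base of the lateral stalk, had its centre 748 bp inside the gene at day 0 and 312 and 313 bp later. The median width was 1047, 900 and 1058 bp, against 1079, 888 and 1091 bp at the other genes, so the peaks were of ordinary width.

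**Figure D3:**
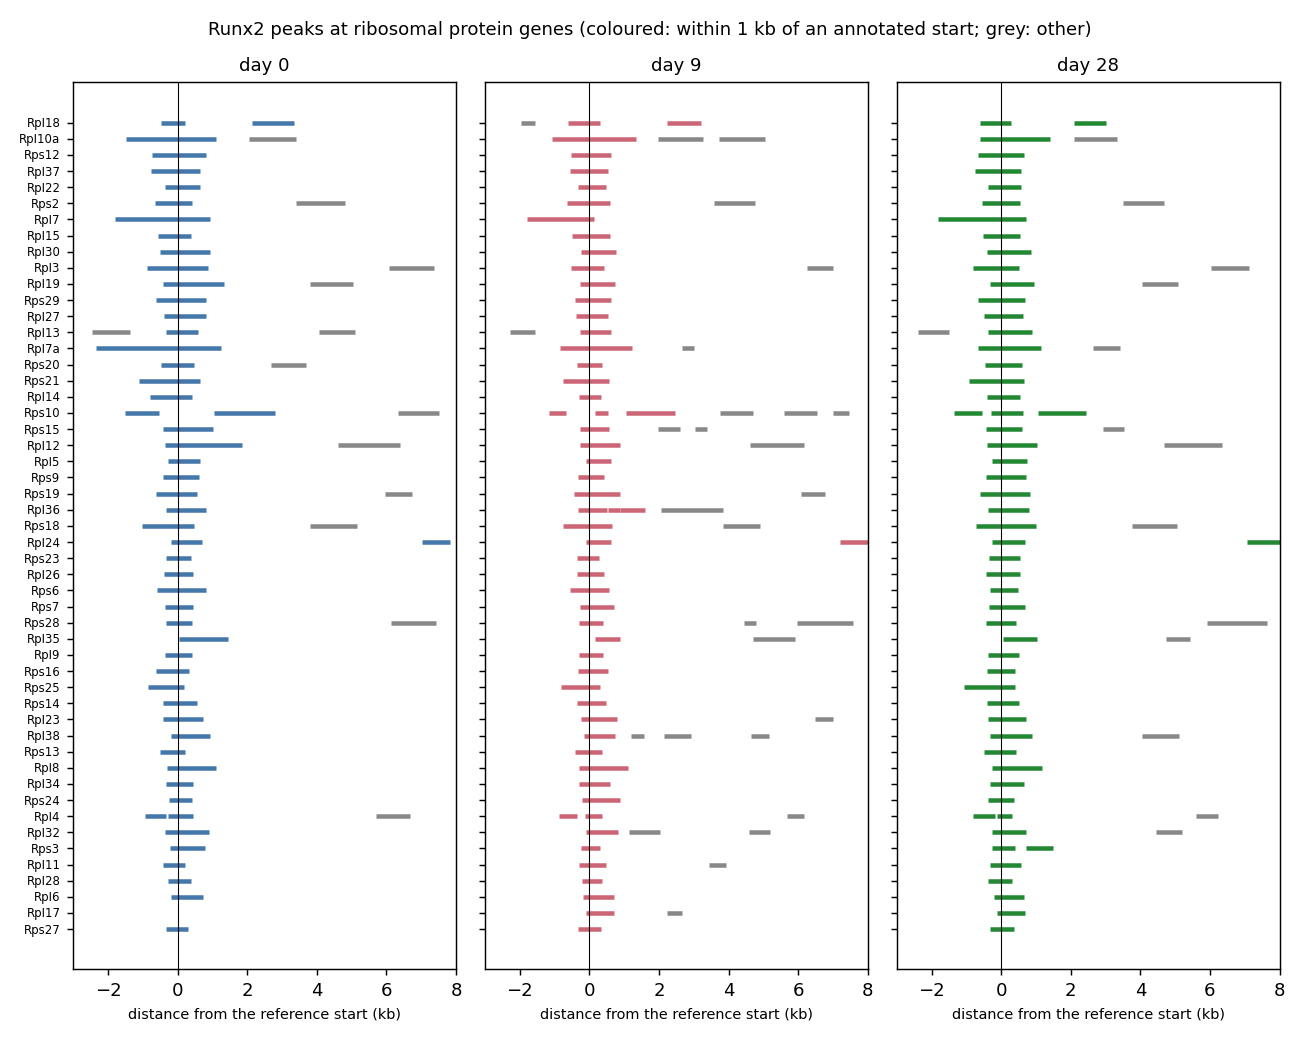
Runx2 peaks assigned to the 51 ribosomal protein genes at day 0, day 9 and day 28, drawn from end to end against the distance in kb from the reference start on the coding strand, with genes in the order of the mean percentile. Coloured bars are start peaks and grey bars are other peaks; the axis ends at 8 kb, which leaves out peaks of Rpl11 and the far part of those of Rpl24. Nearly all genes have 1 bar across the vertical line at 0, and Rpl18, Rps10 and Rpl24 have further coloured bars at other annotated starts.

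Another protein-coding start lay within 1 kb of a start at 11 of the 51 genes (21.6%), against 12.6% of the other genes. The neighbours are Sphk2 at Rpl18, Rnf151 at Rps2, Nkiras1 at Rpl15, Med22 at Rpl7a, Lrsam1 at Rpl12, Vps52 at Rps18, Ndufa7 at Rps28, Lias at Rpl9, Trappc4 at Rps25, Zwilch at Rpl4 and Rab13 at Rps27. At 10 of these genes, all but Rps2, the start peaks also reached within 1 kb of the neighbour's start, and such a peak cannot be assigned to 1 gene of the pair. Among the 40 genes with no such neighbour the share with a start peak was 97.5% at day 0 and 100% at day 9 and day 28. These 40 include Rpl7, whose wide start peak also reached within 1 kb of the start of Rdh10, a retinol dehydrogenase gene, at each day. They also include Rpl24, where it was not checked which gene the second annotated start belongs to.

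The start peaks of the ribosomal protein genes were shared by the 3 days. When overlapping peaks of the lists were merged into regions, 53 of 56 start regions (94.6%) were in all 3 lists, 2 were in the day 9 and day 28 lists and 1 was in the day 9 list alone. For start regions of other genes the share in all 3 lists was 67.0% of 13200. Since the lists were called against the same input, these shares are given as a description. Within the 51 genes, the percentile was highest at day 9 in 32, at day 28 in 12 and at day 0 in 7 (Rpl18, Rps12, Rpl3, Rpl27, Rps21, Rps10 and Rps6), which is 62.7%, 23.5% and 13.7%, against 61.4%, 31.8% and 6.75% of the other genes with start peaks at all days. Tied scores of 3100 set part of this order, since a tie stood at percentile 97.4 at day 9 and 97.8 at day 28. Without the genes that reached 3100 at any day, the counts of the remaining 44 genes were 30 at day 9, 8 at day 28 and 6 at day 0 (68.2%, 18.2% and 13.6%), against 67.5%, 25.8% and 6.7% of the other genes.

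Away from the starts, 14 peaks were assigned to these genes at day 0, 30 at day 9 and 16 at day 28, at 13, 20 and 15 genes, while 29 genes had none at any day. Of these peaks, 11, 18 and 13 lay beyond the 3′ end of the gene, 7, 14 and 10 overlapped another protein-coding gene, and 4, 7 and 5 lay within 1 kb of the start of another gene. Their regions were less often listed at every day than the start regions, with 9 of 32 in all 3 lists and 12 in the day 9 list alone. Among all regions over 1 kb from every protein-coding start, 17.8% of 54415 were in all 3 lists and 40.2% in the day 9 list alone.

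The strongest of these peaks was at Rpl11. At day 9 a peak of score 3100 lay at chr4:135595960-135597397, and at day 28 a peak of score 3157, at percentile 99.8, overlapped it. No peak was listed there at day 0. Its centre lay 12327 bp from the nearest Rpl11 start at day 9, inside the 25.2 kb annotated gene but past the end of both protein-coding transcripts, which are 3.66 and 2.81 kb long. At the same gene the start peak scored 468 at day 9 and 344 at day 28, so that the distant peak was the higher one at both days. Further peaks in the non-coding stretch of Rpl11 scored 119, 118 and 285 near its far end, and 604 at day 9 near the 3′ end of the protein-coding transcripts.

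At Rpl12 a peak beyond the 3′ end, at chr2:32821692-32823254 at day 9, scored 920.1, 3100 and 2333 at day 0, day 9 and day 28, each above the start peak of the gene at the same day (584, 1178 and 994). It overlapped no other protein-coding gene. At Rps2 a downstream peak scored 517, 2174 and 1841 and covered the start of Ndufb10, a gene of respiratory complex I. The downstream peaks of Rps18 (221, 1147 and 888), Rps28 (200.4, 897 and 721) and Rpl4 (114, 293 and 156) lay near the starts of B3galt4, Kank3 and Snapc5. Peaks of this kind sit at both a ribosomal protein gene and the start of its neighbour, and the files do not separate them.

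Further peaks away from the starts lay at Rpl17, Rpl35, Rpl13, Rpl10a and Rpl3. Rpl17 had a day 9 peak of score 669 in an intron, the only peak away from its start. It was higher than the Rpl17 start peak of that day, which scored 209. Rpl35 had downstream peaks of 615 at day 9 and 149.6 at day 28, over Wdr38. Rpl13 had an upstream peak of 442, 492 and 516 at the 3 days, and 1 downstream at day 0 of 134, both over the gene model Gm20388. The peaks of Rpl17 and Rpl35 were highest at or limited to day 9, whereas that of Rpl13 was listed at every day. Rpl10a had downstream peaks over Tead3 with a score of 153 at day 0, 392 and 252 at day 9 and 224 at day 28. Rpl3 had a downstream peak of 118, 126 and 175. Neither reached the height of the start peak of its gene.

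The peaks not yet described lay at 12 genes. At day 9, Rpl38 had peaks of 273, 131 and 135, Rps10 of 215, 133 and 132, Rpl32 of 172 and 131, and Rps15 of 142 and 121. Rps19 had 1 of 267, Rpl36 of 209, Rpl18 of 137, Rpl7a of 115, Rpl23 of 104 and Rps28, in an intron, of 103. These 10 genes all had a higher peak at a start at day 9. At day 28 such peaks were listed at Rpl38 (245), Rpl32 (191), Rpl19 (170.0), Rpl7a (119) and Rps15 (112). Fewer were listed at day 0, at Rps20 (152), Rpl19 (124), Rps10 (116) and Rps19 (112). The day 9 peak of Rpl38 was the highest of them.

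The Runx core was rarely found at the centres of the start peaks. TGTGGT lay within 50 bp of the centre, on either strand, in 0 of 54 start peaks at day 0, which allows a share of up to 5.56% by a limit of 3 counts (Clopper-Pearson upper bound 6.6%), in 3 of 58 at day 9 (5.17%, interval 1.08% to 14.4%) and in 3 of 57 at day 28 (5.26%, 1.1% to 14.6%). Start peaks of other genes had shares of 5.19%, 7.39% and 6.03%, and windows of the same length 450 to 550 bp from the centres of the ribosomal protein start peaks had 6.48%, 4.31% and 7.89%. Peaks over 1 kb from every protein-coding start had shares of 22.5%, 30.6% and 27.0%, above the intervals of the ribosomal protein start peaks at each day. The windows 450 to 550 bp from the centres of these distant peaks had 7.71%, 7.97% and 7.68%. The centre stands in for the summit, and the strongest ribosomal protein start peaks had median widths of 1047, 900 and 1058 bp. The medians of the whole lists were 917, 554 and 763 bp. Whether width affects the share was not tested. With TGCGGT added, the shares of the ribosomal protein start peaks were 0%, 10.3% and 10.5%. The peaks of these genes away from their starts held TGTGGT in 1 of 14 (7.14%), 7 of 30 (23.3%, interval 9.93% to 42.3%) and 2 of 16 (12.5%). The intervals of these few peaks were wide, 0.181% to 33.9% at day 0 and 1.55% to 38.3% at day 28, and hold the share of the distant peaks at each day.

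**Figure D4:**
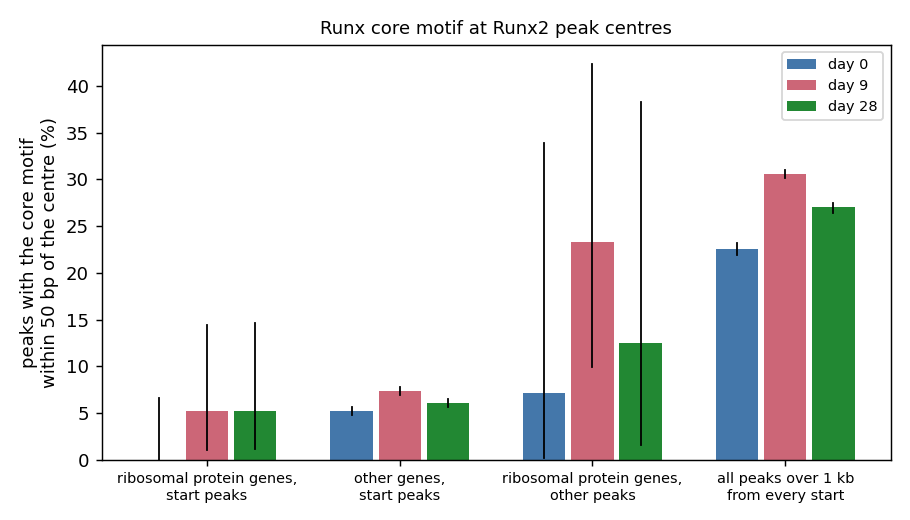
Share of peaks, in percent, with TGTGGT on either strand within 50 bp of the peak centre, for start peaks of the 51 ribosomal protein genes, start peaks of other genes, the remaining peaks of the 51 genes and all peaks over 1 kb from every protein-coding start, by day. Lines are 95% Clopper-Pearson intervals. The start peaks of the ribosomal protein genes are at 0%, 5.17% and 5.26%, and the distant peaks at 22.5%, 30.6% and 27.0%.

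TGTGGT lay at the centre of a start peak at 4 genes, of which 3 are described here, Rpl18 (day 28), Rpl22 (day 9) and Rps2 (day 9 and day 28). Their sites are shown on the strand that reads TGTGGT, in 30 bases of mm9 with the core in capitals, followed by the site in the distant day 9 peak of Rpl11 for comparison.
Rps2, chr17:24856956-24856985, - strand: gcacccgcaggcTGTGGTtggctgcgtctt
Rpl22, chr4:151699989-151700018, + strand: cgccatggcgccTGTGGTtagtatggctcc
Rpl18, chr7:52973322-52973351, + strand: agaaacccaaatTGTGGTagagctccgcgt
Rpl18, chr7:52973365-52973394, - strand: aactggcgtctcTGTGGTgcacgggtgacg
Rpl11, chr4:135596634-135596663, - strand: actggccactgaTGTGGTcagatgtagtat
The Rps2 site lies at -37 bp from the reference start and was at the centre of the peaks of score 3100 at both later days. The Rpl22 site lies 42 bp inside the gene, under a day 9 peak of score 3100. The Rpl18 sites, 2510 and 2553 bp inside the gene, lie at its other annotated start. Of the 10 leading genes, 7 had no TGTGGT at the centre of a start peak at any day, including Rpl10a, Rps12 and Rpl37.

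Processed copies, which carry the exons of a ribosomal protein gene without its promoter and introns, were almost without peaks. The annotation names 70 pseudogenes after 31 of the 51 genes, and a peak overlapped 0 of them at day 0, 1 at day 9 (Rps2-ps13) and 1 at day 28 (Rpl12-ps2), or 1.43% at each of the later days. A count of 0 of 70 allows a share of up to 4.29% by a limit of 3 counts (Clopper-Pearson upper bound 5.13%). The share of other pseudogenes with a peak was not taken, so it is not known whether these counts are low for a pseudogene. Short reads from an exon can match such copies, and only peaks were available here, so the reads were not examined. Inside 18 of the genes lie 34 snoRNA genes, which guide modification of ribosomal RNA, and 7, 6 and 9 of these lay under a peak at day 0, day 9 and day 28. Other snoRNA genes were not counted, so it is not known whether these counts differ from theirs.

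Other lists of genes used by growing cells also had start peaks nearly throughout. Of 49 cytosolic translation factors, 47, 48 and 49 had a start peak at day 0, day 9 and day 28, and the exceptions were Eif3f and Eef2 (day 0) and Eif3k (day 9). Of 67 nucleolar ribosome assembly factors, 63, 67 and 66 had one, with Nhp2, Pes1, Heatr1 and Tcof1 lacking it at day 0 and Nop10 at day 28. The counts were 19, 19 and 20 of 20 cytosolic aminoacyl-tRNA synthetases, where Qars lacked a start peak at day 0 and day 9, and 27, 29 and 29 of 30 proteasome subunits. The proteasome exceptions were Psmb5 (day 0 and day 28), Psmc6 and Psmd4 (day 0) and Psmb7 (day 9). Mitochondrial ribosomal proteins had 69, 75 and 75 of 76. Nearly every gene of these lists thus had a start peak as well, and the intervals of the lists overlapped those of the 51 genes at each day.

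The 34 other cytosolic ribosomal protein genes that matched the annotation had start peaks at 28, 32 and 31 genes (82.4%, 94.1% and 91.2%). The genes that lacked one in some list, named here after their values were seen, were Rpl3l and Rpl39l, with none at any day, Rpl10l, with a day 9 score of 123 alone, and Rpl31, Rpl39 and Rps4x, which lacked one at day 0. Rpl3l, Rpl10l and Rpl39l are relatives of widely expressed ribosomal protein genes that are known to be used mainly in muscle or testis. With the 51 genes and these 34 together, the genes without a start peak at any day were thus Rpl3l and Rpl39l.

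The difference from other genes depended on how strong a peak had to be. With a lowest score of 500, 43.1%, 84.3% and 82.4% of the ribosomal protein genes had a start peak at day 0, day 9 and day 28, against 27.3%, 71.8% and 70.6% of the CpG-rich other genes. With a lowest score of 1000 the shares were 7.84%, 56.9% and 52.9%, against 7.3%, 53.9% and 49.9%. At a lowest score of 2000 the ribosomal protein genes were at 1.96%, 23.5% and 17.6% and the CpG-rich other genes at 1.3%, 27.3% and 23.4%. The share of the ribosomal protein genes was thus above that of the CpG-rich genes at a score of 500, close to it at 1000, and below it at 2000 at the later days. No intervals are given for these shares, so the gaps were not set against counting error.

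**Figure D5:**
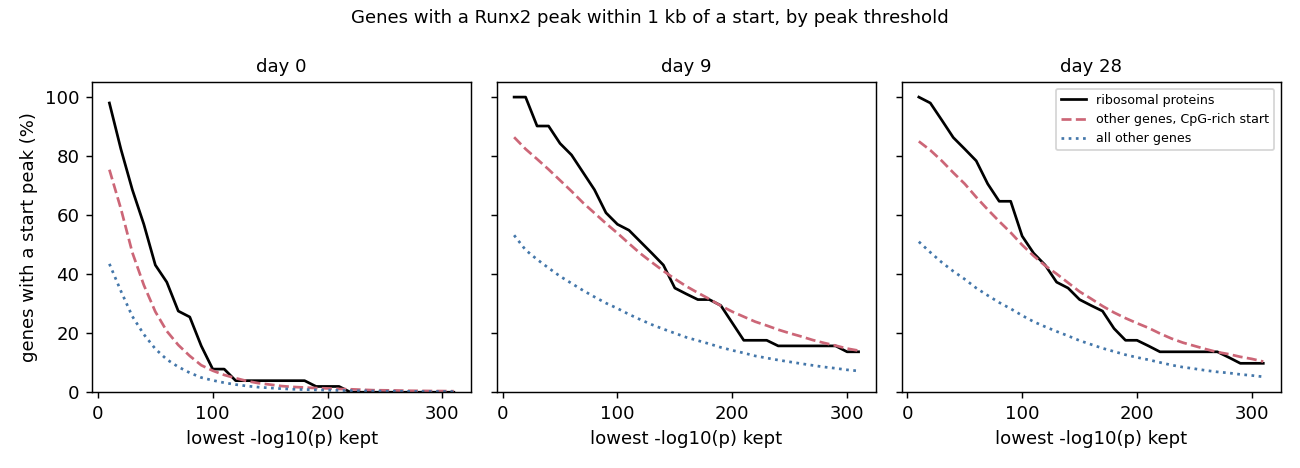
Share of genes, in percent, with a Runx2 peak within 1 kb of a start against the lowest −log10 p-value kept, for the 51 ribosomal protein genes, other genes with a CpG-rich start and all other genes, in 1 panel per day. At day 9 the solid line of the ribosomal protein genes begins at 100%, meets the dashed line of the CpG-rich genes at high thresholds and is at 23.5% against 27.3% at a score of 2000.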

How the data were processed

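Per the labels and the study's methods, Runx2 ChIP-Seq libraries were sequenced as 36-base reads, processed with CASAVA (version 1.6) and Bowtie (version 0.12.8) on mm9, and the 2 replicates of each time point were pooled before MACS (version 1.4.1) called peaks against the input at a p-value of 1e-10. The deposited value of each peak is the authors' MACS score, which is not comparable between lists of different depth and is tied at 3100, so scores were ranked within each list (mid-ranks for ties). Read depth was not analysed here, since the lists hold no read counts, and the input sample and signal tracks were not used.

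Peaks were joined to GENCODE M1 (Ensembl 65) protein-coding transcripts. The 13 mitochondrial genes were left out. Sequence was read from the NCBIM37 genome, the same build. Intervals are Clopper-Pearson at 95%, and no test was made because each group is 1 pooled list. Named with full values were the 10 genes highest by mean percentile, genes lacking a start peak in a list, genes with TGTGGT at a start-peak centre or with peaks away from their starts, and, in related lists, genes lacking a start peak where there were 5 or fewer. The 51 genes, the lists and the motifs were chosen with earlier results of these data known. The start-peak Runx sites of 1 of these genes are not reported here. Code was tested on simulated peaks (Python 3.11.15, NumPy 2.4.6, SciPy 1.17.1, Matplotlib 3.10.9).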

Additional observations from a re-analysis of the deposited data

How the results depend on the processing

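Of 94 values recomputed under other settings, 71 stayed within the limits set for a change and 23 moved. These values are shares, counts and medians without a direction, so none of them could reverse. The difference from the CpG-rich genes did change direction with the threshold at all 3 days. The share of the ribosomal protein genes was first the lower one at a lowest score of 1200 at day 0 (3.92% against 4.76%). At day 9 this was at 1500 (35.3% against 38.4%) and at day 28 at 1300 (37.3% against 40.1%). At each day the order changed back at some higher scores. Stricter peaks moved most. At a p-value of 1e-50 the share of ribosomal protein genes with a start peak was 43.1% at day 0 (other genes 14.7%), the peaks assigned to them numbered 24 at day 0 and 53 at day 9, and 22 genes had start peaks in all 3 lists. At 1e-100 the shares were 7.84%, 56.9% and 52.9% at day 0, day 9 and day 28 (other genes 4.02%, 28.4% and 26.0%), the assigned peaks 4, 34 and 30, and the genes in all 3 lists 4. Restricting the other genes to CpG-rich promoters gave 75.4%, 86.4% and 85.0%. Widening the gene body by 10 kb gave 144 and 110 peaks at day 9 and day 28. Ranks taken among start peaks alone gave median percentiles of 64.6 at day 9 and 57.6 at day 28. Within 100 bp of the centre, TGTGGT was in 7.41% of the day 0 start peaks. With every list cut to its 25457 highest-scoring peaks, the shares were 98.0%, 90.2% and 94.1%, against 43.5%, 43.6% and 46.5% of the other genes. A single reference start per gene, an alternative chosen after seeing the data like the removal of genes at the tied score, left the shares at 98.0%, 100% and 100%. No paired analysis was possible because each time point is 1 pooled list. Peaks near a neighbouring start cannot be assigned to 1 gene, and the pooled lists give no spread between replicates.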
